A study of Mus musculus with 12 samples.

Results

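The genes examined were 7 transcripts that mark B lymphocytes, Cd79a, Cd79b, Ms4a1, Cd22, Blk, Pax5 and Fcer2a, as they appear in arrays of peritoneal macrophages. They were taken by name from the deposited values, where each of the 7 has 1 probe set that is listed for that gene alone, among 19938 genes measured in the same way. The macrophages were elicited with thioglycollate in C57BL/6 mice, collected by peritoneal lavage, and came from animals that had eaten chow or high-fat food over 12 weeks, starting when they were 6 weeks old. They were then kept without red blood cells (RBC), or were given RBC of chow-fed or of high-fat-fed mice to engulf (erythrophagocytosis). This gives 6 groups of 2 Affymetrix Mouse Gene ST arrays. The labels call the chow macrophages CNR (no RBC), CC (chow RBC) and CHF (high-fat RBC), and the high-fat macrophages HNR, HC and HHF in the same order. All 6 groups share the strain and the thioglycollate, and no purification after the lavage is named in the labels' protocols. The labels number the 2 arrays of a group as animals 1 and 2, so that CNR2 is the second of CNR; whether a sample pooled mice is not stated there, and p-values measure the spread between these samples.

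The values are log2 signals per probe set, so 1 unit is a doubling of signal. No detection calls were used, so it is not known how far each gene lies above background, and with 2 arrays a group the precision is limited by their number. Signals of different probe sets are not on a common scale, so levels are compared between arrays for 1 gene and not between genes. Rough marks of low signal are the exception. RNA was taken from whole cultures, in which fewer B cells and less of a transcript per cell cannot be told apart.

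The B cell antigen receptor is a membrane immunoglobulin that signals through a pair of chains, CD79a (Cd79a) and CD79b (Cd79b), whose tyrosines are phosphorylated by Src-family kinases, of which BLK (Blk) is the one named for B lymphocytes. Ms4a1 encodes CD20, a membrane protein of mature B cells, and Cd22 encodes a sialic acid receptor (a Siglec) that dampens receptor signalling. Pax5 is the transcription factor that commits cells to the B lineage, and Fcer2a encodes CD23, the low-affinity receptor for IgE. The mouse peritoneal cavity holds resident B cells, many of them of the B-1 type, beside its macrophages.

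Searched by gene symbol, the RefSeq promoter table (GRCm38.p6) held a start site for 4 of the 7 genes, Cd79a, Cd22, Pax5 and Fcer2a. The 250 bases upstream of the start are shown for Cd79a, which had the widest range of the 7 over the arrays, for Cd22, whose signal moved in the opposite direction, and for Pax5, the lineage factor. Cd79a lies at chr7:24897247-24897496 on the plus strand, Cd22 at chr7:30879029-30879278 on the minus strand and Pax5 at chr4:44710695-44710944 on the minus strand. The start used for Cd22 is the one in the promoter table and lies inside the gene as RefSeq lists it, downstream of the gene's 5′ end. Each is written 5′ to 3′ along its gene, and capitals mark matches to the motifs searched.
Cd79a: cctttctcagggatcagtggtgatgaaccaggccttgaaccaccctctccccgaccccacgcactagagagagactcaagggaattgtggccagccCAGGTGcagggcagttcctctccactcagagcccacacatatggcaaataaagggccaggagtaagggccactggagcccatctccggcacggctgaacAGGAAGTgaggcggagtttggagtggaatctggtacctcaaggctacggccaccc
Cd22: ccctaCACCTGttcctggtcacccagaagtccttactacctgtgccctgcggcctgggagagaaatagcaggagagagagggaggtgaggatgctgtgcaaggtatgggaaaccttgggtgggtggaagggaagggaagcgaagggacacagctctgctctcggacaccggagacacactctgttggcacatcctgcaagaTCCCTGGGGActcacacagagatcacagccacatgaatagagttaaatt
Pax5: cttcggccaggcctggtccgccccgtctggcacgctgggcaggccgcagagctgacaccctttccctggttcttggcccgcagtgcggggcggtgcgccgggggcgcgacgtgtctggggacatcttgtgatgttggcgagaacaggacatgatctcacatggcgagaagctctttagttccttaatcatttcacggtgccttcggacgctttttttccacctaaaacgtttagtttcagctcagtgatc
The letters searched, on both strands, were AGGAAGT for Ets factors, CAGGTG for E-box factors, CCCNNGGGA for EBF factors and the octamer ATGCAAAT. Over 32851 promoters of the same length they matched 7.69%, 17.2%, 5.6% and 1.6%. Cd79a held the Ets letters from -55 to -49 and the E-box letters from -154 to -149, counted from the start site. Cd22 held the E-box letters on the other strand from -245 to -240, and the EBF letters from -48 to -40 and, overlapping them on the other strand, from -49 to -41. The Pax5 window held none of the 4. These are matches of letters only.

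Cd79a had the widest range over the 12 arrays, 2.65 log2 units. In chow macrophages it read 5.38 and 5.94 with no RBC, 5.25 and 5.27 with chow RBC, and 4.69 and 4.86 with high-fat RBC. In high-fat macrophages it read 3.65 and 3.29 with no RBC, 3.61 and 3.92 with chow RBC, and 3.93 and 3.94 with high-fat RBC. The lowest chow array therefore lay 0.75 above the highest high-fat array. Among the chow groups the order was no RBC (5.66 ± 0.40, SD, n = 2), chow RBC (5.26 ± 0.01) and high-fat RBC (4.77 ± 0.12), with no shared values. The 3 high-fat groups lay at 3.47 ± 0.25, 3.77 ± 0.22 and 3.94 ± 0.01 in the same order of RBC, and the first and second overlapped.

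Cd79b, the partner chain, followed the same order across the chow groups. It read 6.30 and 6.55 with no RBC, 5.75 and 6.03 with chow RBC, and 5.62 and 5.58 with high-fat RBC. In high-fat macrophages all 6 arrays lay between 4.64 and 4.89, with group means of 4.82 ± 0.09 (no RBC), 4.76 ± 0.04 (chow RBC) and 4.75 ± 0.16 (high-fat RBC; SD, n = 2 each). These 3 groups overlapped one another, and all 6 arrays lay below the lowest chow array by at least 0.69.

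Ms4a1 was highest in 1 group, and the arrays of all other groups lay at or below 3.86. Chow macrophages with no RBC read 4.53 and 4.51, against 3.86 and 3.61 with chow RBC and 3.55 and 3.41 with high-fat RBC. High-fat macrophages read 3.10 and 3.25 with no RBC, 3.10 and 3.15 with chow RBC, and 3.43 and 2.96 with high-fat RBC. The lowest chow array (3.41, high-fat RBC) lay within the range of the high-fat arrays, so the diets overlapped. Ms4a1 and Fcer2a were the members with signals low enough to be removed by a filter on low values.

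Cd22 ran in the opposite direction. It was lowest in chow macrophages with no RBC, at 7.38 and 7.54, and read 7.60 and 7.80 with chow RBC and 7.83 and 7.70 with high-fat RBC. High-fat macrophages read 8.05 and 8.16 with no RBC, 8.09 and 8.10 with chow RBC, and 7.98 and 7.98 with high-fat RBC. All 6 high-fat arrays lay above the highest chow array, by 0.14 or more. As a marker, Cd22 thus did not move with the other genes named for B cells here.

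Pax5, Blk and Fcer2a varied less, over 0.53, 0.56 and 0.67 log2 units. Pax5 read 5.32 and 5.30, 5.16 and 5.26, and 5.16 and 4.99 in the chow groups (no, chow and high-fat RBC) and between 4.79 and 4.97 on the high-fat arrays, so that the diets were 0.03 apart. Blk read 4.85 and 5.0 in chow macrophages with no RBC, and between 4.44 and 4.71 on the other 10 arrays. For Blk the unexposed chow arrays stood alone. Fcer2a lay between 3.35 and 3.89 on the chow and between 3.22 and 3.57 on the high-fat arrays, and no group stood apart.

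**Figure D1:**
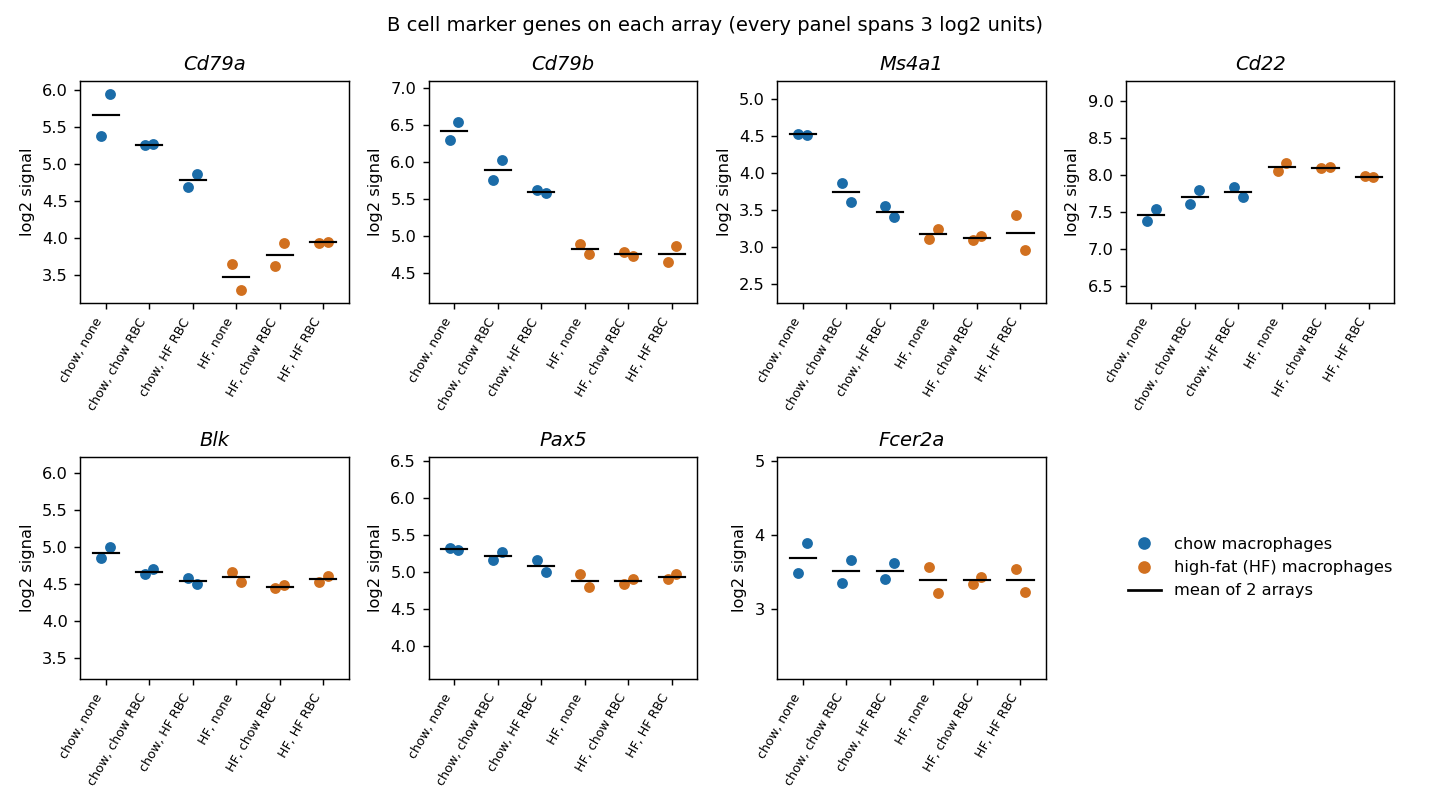
Log2 signal (vertical axes) of the 7 B cell marker genes on each of the 12 arrays, grouped by macrophage diet and RBC given (horizontal axes); points are arrays and short bars are group means of 2. Cd79a and Cd79b are higher on all 6 chow than on all 6 high-fat arrays, Cd22 is lower, and Ms4a1 and Blk are highest in chow macrophages without RBC.

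Without RBC, 5 of the 7 genes were lower in high-fat macrophages, 1 was higher and 1 did not pass the test. Over all genes, 5.82% were lower and 8.12% higher in that comparison by the same rule, a Benjamini-Hochberg adjusted p below 0.05 from limma. Cd79a was lower by a log2 difference of -2.19 ± 0.17 (SE), or 4.57-fold (adjusted p = 6.41e-07), and Cd79b by -1.60 ± 0.12, or 3.03-fold (adjusted p = 6.52e-07). Ms4a1 was lower by -1.35 ± 0.14, or 2.54-fold (adjusted p = 1.32e-05). Cd22 was higher by 0.65 ± 0.10, or 1.56-fold (adjusted p = 0.000709). The smaller differences were -0.43 ± 0.10 for Pax5 (adjusted p = 0.0109) and -0.33 ± 0.10 for Blk (adjusted p = 0.0412), while Fcer2a at -0.29 ± 0.16 did not pass (adjusted p = 0.301). The median difference of the 7 was -0.43, beside -0.01 over all genes. The calls of Cd79a, Cd79b, Ms4a1 and Cd22 held with any 1 of the 12 arrays left out. Pax5 lost its call without CNR1 (adjusted p = 0.0642), CNR2 (0.059) or HNR2 (0.0732). Blk kept its call in 3 of 12 omissions, those of CC1, CC2 and HNR1, with adjusted p from 0.0375 to 0.282 over the 12.

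Averaged over both kinds of RBC, the differences between the macrophage diets had the same signs as without RBC. Of the 7 genes, 3 were lower in high-fat macrophages, against 2.65% of all genes, and 1 was higher, against 2.20%. Cd79a was at -1.16 ± 0.12 (adjusted p = 3.45e-05), Cd79b at -0.99 ± 0.09 (adjusted p = 7.56e-06), Ms4a1 at -0.45 ± 0.10 (adjusted p = 0.0171) and Cd22 at 0.30 ± 0.07 (adjusted p = 0.0302). Pax5 at -0.24 ± 0.07 (adjusted p = 0.0782), Blk at -0.09 ± 0.07 and Fcer2a at -0.13 ± 0.12 did not pass. Cd79a and Cd79b held with each array left out. Ms4a1 lost its call, and the count of calls fell from 4 to 2, without CC1 (adjusted p = 0.0883), CHF1 (0.0858), HC1 (0.0655) or HHF2 (0.0625). Cd22 kept its call in 5 of the 12 omissions, with adjusted p up to 0.15, and lost it without each exposed array but CC2.

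The comparison was also made for each kind of RBC. With chow RBC, Cd79a differed between the macrophage diets by -1.49 ± 0.17 (adjusted p = 0.000165), Cd79b by -1.13 ± 0.12 (adjusted p = 0.000117) and Ms4a1 by -0.61 ± 0.14 (adjusted p = 0.0351). With high-fat RBC, Cd79a differed by -0.84 ± 0.17 (adjusted p = 0.0243) and Cd79b by -0.85 ± 0.12 (adjusted p = 0.00196), and Ms4a1 at -0.29 ± 0.14 did not pass (adjusted p = 0.555). Blk was at 0.03 ± 0.10 there, against -0.21 ± 0.10 with chow RBC, and passed in neither. The receptor chains were thus lower in high-fat macrophages under all 3 RBC conditions. On all 6 high-fat against all 6 chow arrays, Cd79a, Cd79b and Pax5 were lower without overlap, as were 3.09% of all genes, and Cd22 was higher without overlap, as were 2.67%.

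**Figure D2:**
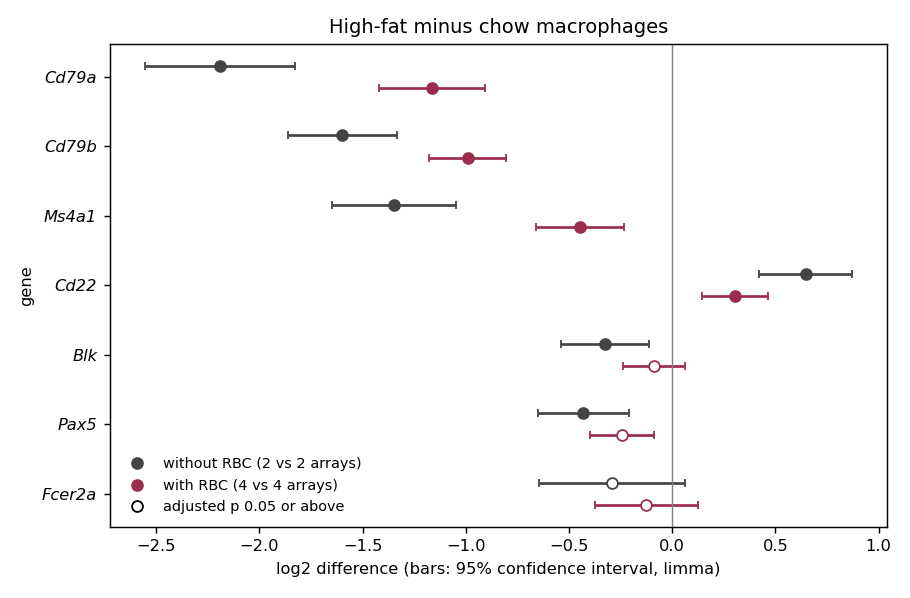
Log2 difference between high-fat and chow macrophages (horizontal axis) for each of the 7 genes (vertical axis), without RBC and with RBC of either kind; points are limma estimates (filled where the adjusted p is below 0.05) and bars are 95% confidence intervals. Cd79a, Cd79b and Ms4a1 lie to the left of 0 and Cd22 to the right in both conditions, and each of these estimates lies nearer to 0 with RBC.

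What RBC did to these transcripts was asked within each macrophage diet, 4 exposed against 2 unexposed arrays. In chow macrophages, 4 of the 7 genes fell with exposure, against 4.51% of all genes, and 0 rose by the limma test, although the higher value of Cd22 had an unadjusted p below 0.05. Ms4a1 fell the furthest, by a log2 difference of -0.91 ± 0.12 (adjusted p = 0.000206), followed by Cd79b at -0.68 ± 0.11 (adjusted p = 0.000807) and Cd79a at -0.64 ± 0.15 (adjusted p = 0.0101). Blk fell by -0.32 ± 0.09 (adjusted p = 0.0244). Cd22 at 0.28 ± 0.09 (adjusted p = 0.0634), Pax5 at -0.16 ± 0.09 and Fcer2a at -0.18 ± 0.14 did not pass. On the arrays themselves, Cd79a, Cd79b, Ms4a1, Blk and Pax5 were lower on all 4 exposed than on both unexposed arrays, as were 20.6% of all genes, and Cd22 was higher, as were 20.2%. Cd79b and Ms4a1 kept their calls with each array left out. Without CNR2 the count of 4 fell to 2, as Cd79a went to -0.36 (adjusted p = 0.241) and Blk to an adjusted p of 0.277, and Blk was also lost without CC1 (0.0617) or CHF2 (0.0783).

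Each kind of RBC was also set against the same 2 unexposed chow arrays, which both comparisons share. With chow RBC the differences were -0.78 ± 0.14 for Ms4a1 (adjusted p = 0.00296), -0.53 ± 0.12 for Cd79b (adjusted p = 0.0148), -0.40 ± 0.17 for Cd79a (adjusted p = 0.164) and -0.26 ± 0.10 for Blk (adjusted p = 0.128). With high-fat RBC they were -1.04 ± 0.14 for Ms4a1 (adjusted p = 0.000342), -0.82 ± 0.12 for Cd79b (adjusted p = 0.000769), -0.89 ± 0.17 for Cd79a (adjusted p = 0.00454) and -0.38 ± 0.10 for Blk (adjusted p = 0.0275).

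In high-fat macrophages, 0 of the 7 genes passed the limma test for RBC exposure, in a comparison where 1.08% of all genes did, and 1 of the 7, Cd79a, had an unadjusted p below 0.05. That share is 215 genes, and with any 1 array left out it ran from 120 to 652 genes, with 0 of the 7 called each time. Cd79a was at 0.38 ± 0.15 (95% interval 0.07 to 0.70, adjusted p = 0.34), a value opposite in sign to that in chow macrophages. The other 6 lay between -0.08 (Blk) and 0.02 (Pax5), with intervals of -0.28 to 0.25 for Ms4a1 and -0.30 to 0.16 for Cd79b. On the 4 exposed arrays 0 of the 7 were higher or lower without overlap, a pattern that 16.9% of all genes showed. The intervals of Ms4a1 and Cd79b do not reach the falls estimated in chow macrophages. Unexposed high-fat macrophages already read low for Ms4a1 (3.10 and 3.25) and Cd79a (3.65 and 3.29). As a rough mark only, since probe sets share no common scale, the lower quartile of all genes on these arrays was 4.01 and 3.87. Cd79b (4.89 and 4.76) lay above it, which does not place any of these genes against its own background. Whether signals this low leave room for a fall was not tested.

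The response to RBC differed between the macrophage diets for 3 of the 7 genes, by the limma test of the interaction, and each of the 3 was more positive in high-fat macrophages, against 2.57% of all genes. The differences were 1.03 ± 0.21 for Cd79a (adjusted p = 0.00878), 0.90 ± 0.17 for Ms4a1 (adjusted p = 0.00663) and 0.61 ± 0.15 for Cd79b (adjusted p = 0.0302). Cd22 at -0.34 ± 0.13 (adjusted p = 0.164), Blk at 0.24 ± 0.12 (adjusted p = 0.334), Pax5 at 0.19 ± 0.12 and Fcer2a at 0.17 ± 0.20 did not pass. This is the same quantity as the difference of the diet effects with and without RBC given above. For Ms4a1 and Cd79a it includes the low unexposed high-fat signals, whose part in it was not tested. Ms4a1 kept the call with each array left out. Cd79a lost it without CNR2 (0.75, adjusted p = 0.063), which took the count to 1. Cd79b kept it in 4 of 12 omissions, those of CC2, CNR1, HHF1 and HNR1, with adjusted p from 0.0203 to 0.194 over the 12.

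**Figure D3:**
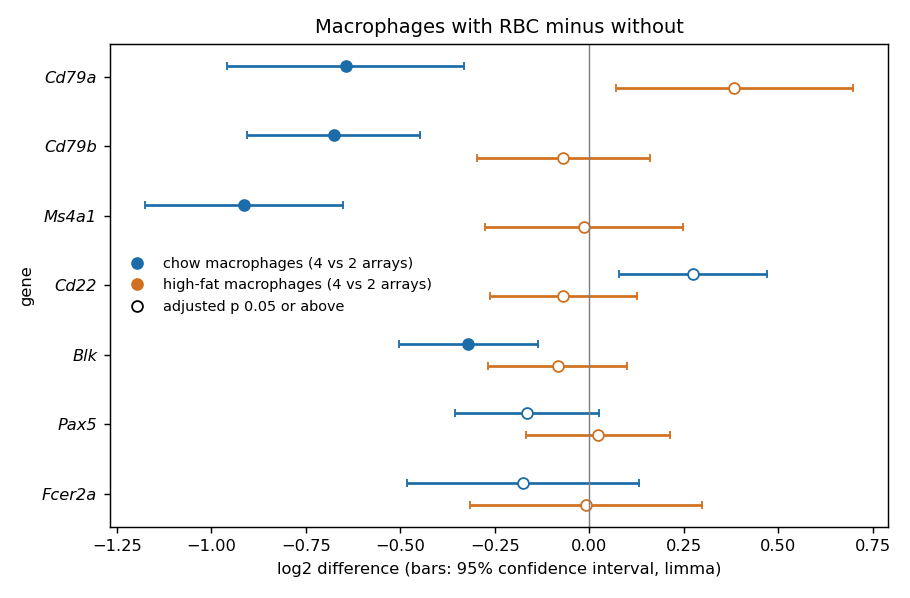
Log2 difference between exposed and unexposed macrophages (horizontal axis) for each of the 7 genes (vertical axis), in chow and in high-fat macrophages; points are limma estimates (filled where the adjusted p is below 0.05) and bars are 95% confidence intervals. Ms4a1, Cd79b, Cd79a and Blk lie to the left of 0 in chow macrophages, and in high-fat macrophages the estimates lie between -0.08 and 0.38.

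Averaged over both macrophage diets, 2 of the 7 genes fell with RBC exposure, against 2.20% of all genes. These were Ms4a1 at -0.46 ± 0.09 (adjusted p = 0.00471) and Cd79b at -0.37 ± 0.08 (adjusted p = 0.00835), and for both the average covers responses that differed. Without CNR2, Cd79b lost its call (adjusted p = 0.0688), which left 1. Blk at -0.20 ± 0.06 did not pass (adjusted p = 0.0597), and Cd79a at -0.13 ± 0.10 averages values of opposite sign.

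The diet of the RBC donor was the question in the series' title. High-fat against chow RBC, averaged over the macrophage diets, gave 0 calls by limma among the 7 genes and 0 with an unadjusted p below 0.05, where 0.0100% of all genes passed. The values ran from -0.16 ± 0.12 for Cd79a (95% interval -0.41 to 0.10) to 0.00 ± 0.12 for Fcer2a. Within chow macrophages Cd79a was at -0.49 ± 0.17 (95% interval -0.85 to -0.12) and Cd79b at -0.29 ± 0.12 (95% interval -0.56 to -0.03), with adjusted p = 1 for both. Within high-fat macrophages they were at 0.17 ± 0.17 and 0.00 ± 0.12. The interaction of RBC diet with macrophage diet passed limma's test for 0 of the 7 and for 0% of all genes, of which 718 had an unadjusted p below 0.05. Cd79a, at 0.66 ± 0.24, was the 1 gene of the 7 with an unadjusted p below 0.05.

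Other genes known from B cells were read from 3 lists, of which 47 of 52 genes were measured. Without RBC, 21 of the 47 were lower in high-fat macrophages, 3 were higher and 23 did not pass, with a median of -0.36. The shares over all genes, 5.82% lower and 8.12% higher, stand beside every list read without RBC below. Many of these genes are also made by macrophages and other myeloid cells. Among 15 measured genes of receptor signalling, 4 were lower and 2 higher. Vav1, an exchange factor of antigen receptor signalling in lymphocytes and myeloid cells, was at -0.69 ± 0.11 (adjusted p = 0.000733), and Fcgr2b, the inhibitory IgG receptor, at -0.89 ± 0.10 (adjusted p = 3.47e-05). Cd81, a tetraspanin of the B cell co-receptor that many cells carry, was higher by 0.74 ± 0.14 (adjusted p = 0.00197).

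Of 14 transcription factors of the B lineage, 7 were lower without RBC and 0 were higher. Irf4, a factor of B and plasma cells that macrophages also use, was at -1.28 ± 0.11 (adjusted p = 1.24e-06). The octamer factor Pou2f2 was at -0.99 ± 0.12 (adjusted p = 6.39e-05), and its B cell coactivator Pou2af1 at -0.62 ± 0.19 (adjusted p = 0.0422). Spi1 (PU.1), a factor of both macrophages and B cells, was at -0.37 ± 0.11 (adjusted p = 0.0379).

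Of 18 other surface and secreted genes, 10 were lower without RBC and 1 was higher. Cd40, the receptor for T cell help on B cells and on macrophages, was at -1.61 ± 0.11 (adjusted p = 1.38e-07), and Fcmr, the IgM receptor, at -1.25 ± 0.15 (adjusted p = 6.66e-05). Cd24a, a surface glycoprotein of immature B cells and other cells, was at -1.10 ± 0.12 (adjusted p = 1.77e-05). Gpr183, an oxysterol receptor that guides B cells, was higher by 0.45 ± 0.11 (adjusted p = 0.0119).

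With RBC, 12 of the 47 were lower in high-fat macrophages and 1 was higher, against 2.65% and 2.20% of all genes. In chow macrophages RBC exposure lowered 11 of the 47 and raised 2, against 4.51% and 8.22% of all genes. The median of the 47 was -0.17, beside -0.03 over all genes. Cd40 fell by -1.21 ± 0.09 (adjusted p = 1.31e-06), Fcmr by -0.84 ± 0.13 (adjusted p = 0.000905) and Irf4 by -0.82 ± 0.09 (adjusted p = 4.55e-05). In high-fat macrophages exposure raised 1 of the 47, Cd24a at 0.56 ± 0.10 (adjusted p = 0.0146), and lowered 0, against 0.878% and 0.201% of all genes. The interaction passed for 8 of the 47, all more positive in high-fat macrophages, against 2.57% of all genes. Among them were Cd40 at 1.06 ± 0.13 (adjusted p = 0.000208) and Irf4 at 0.92 ± 0.13 (adjusted p = 0.000661).

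Of 8 measured B-1 cell genes, 3 were lower without RBC and 0 higher, Plac8 at -0.76 ± 0.22 (adjusted p = 0.0336), Fcrl5 at -0.54 ± 0.15 (adjusted p = 0.0226) and Spn at -0.35 ± 0.11 (adjusted p = 0.0491), each of which other cells make too. With RBC exposure of chow macrophages 0 of the 8 were lower, against 4.51% of all genes. Of the 8, 1 was higher, against 8.22%, namely Plac8 by 0.71 ± 0.19 (adjusted p = 0.0254). Cd5, which helps define B-1a cells and is shared with T cells, was at 0.01 ± 0.11 between the diets without RBC. Of 9 plasma cell genes, 4 were lower between the diets without RBC, among them Prdm1 (-1.10 ± 0.17, adjusted p = 0.000507) and Sdc1 (-0.61 ± 0.10, adjusted p = 0.000841), and Fkbp11 was higher (0.52 ± 0.12, adjusted p = 0.00836). The remaining 4, Jchain, Xbp1, Tnfrsf17 and Derl3, did not pass.

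**Figure D4:**
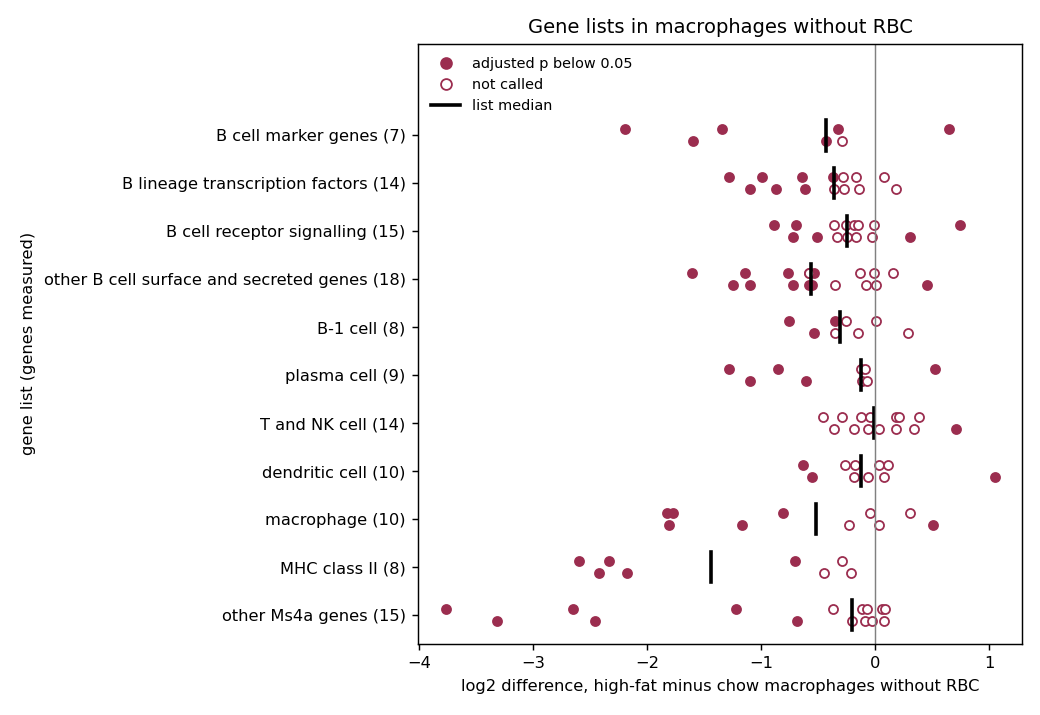
Log2 difference between high-fat and chow macrophages without RBC (horizontal axis) for each measured gene of 11 lists (vertical axis, number of genes in parentheses); filled points have a limma adjusted p below 0.05, open points do not, and black bars are list medians. The medians are -0.43 for the B cell marker genes, -0.01 for T and NK cell genes, -0.52 for macrophage genes and -1.44 for MHC class II genes.

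Markers of other cells were read beside these results. T and NK cell genes, with 14 measured, had 1 higher (Lat) and 0 lower between the macrophage diets without RBC, with a median of -0.01. Their mean log2 signal stayed between 4.37 and 4.58 on all 12 arrays. Low signals were among them, such as Trat1 at 2.49 and 2.55 in chow macrophages without RBC. Whether such signals leave room for a fall was not tested. Of 10 macrophage markers, 5 were lower in high-fat macrophages without RBC and Mertk was higher, and the list's mean went from 9.90 and 9.93 to 9.21 and 9.26. Cd14 was at -1.82 ± 0.14 (adjusted p = 5.04e-07) and Fcgr1 at -1.81 ± 0.11 (adjusted p = 3.98e-08), and the list's mean includes these large falls. The other 4, Cd68, Lyz2, Itgam and Msr1, did not pass. Cd68 read 12.09 and 12.14 in chow and 12.10 and 12.19 in high-fat macrophages without RBC. Itgam read 10.15 and 10.16 against 10.39 and 10.52, so the markers did not fall as a set. With RBC, 4 of the 10 were lower and 0 higher, against 2.65% and 2.20% of all genes. The list's mean was then 9.82 to 9.93 on chow and 9.50 to 9.56 on high-fat arrays. The macrophage genes that were lower moved in the same direction as Cd79a and Cd79b, and their part in the result was not tested.

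MHC class II genes, which B cells, dendritic cells and activated macrophages all make, were lower for 5 of 8 without RBC, among them Cd74 at -2.59 ± 0.12 (adjusted p = 6.31e-09), H2-Aa at -2.42 ± 0.11 (adjusted p = 4.44e-09) and H2-Eb1 at -2.18 ± 0.17 (adjusted p = 5.75e-07). Of 10 dendritic cell genes 2 were lower and 1 higher. Some blood cell transcripts rose with RBC exposure in macrophages of both diets. S100a9 of neutrophils rose by 5.24 ± 0.12 in chow (adjusted p = 9.88e-12) and 6.28 ± 0.12 in high-fat macrophages (adjusted p = 8.45e-13). In each diet 5 of 10 neutrophil genes and 4 of 7 platelet genes rose. Over all genes, 8.22% rose in chow and 0.878% in high-fat macrophages. The neutrophil genes Ngp, Ltf and Camp were called in neither. Of the neutrophil list Mmp9, which macrophages also make and which was chosen after its value was seen, fell in chow macrophages (-0.74 ± 0.10, adjusted p = 0.000306). The mean of the neutrophil list was 5.42 to 5.83 without and 6.46 to 6.82 with RBC, and it includes the large rise of S100a9. Of 4 measured erythroid genes, 2 rose in chow and 1 in high-fat macrophages. Of the 7 B cell marker genes 0 rose with exposure in either, and the part of added blood cell RNA in their fall was not tested.

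The genes whose pattern over the 12 arrays was most like the mean of the 7 were ranked by Pearson r, as a description. The arrays fall into the 2 macrophage diets, and the ranking for the mean of the 7 rests mainly on that split. This need not hold for single members, as Ms4a1, Blk and Fcer2a overlapped between the diets. The 10 nearest were Gmfg (r = 0.965), Pilrb1 (0.964), H2-Eb1 (0.962), Mefv (0.961), Creb5 (0.960), Bst2 (0.960), Tmem26 (0.960), Ednrb (0.957), Adgre1 (0.957) and Zmynd15 (0.956). Adgre1 encodes the adhesion receptor whose antibody staining marks mouse macrophages, and H2-Eb1 a chain of MHC class II. For single members the nearest genes were Gmfg and Ccl5 for Cd79a (0.972 and 0.965), Cfp and Tmem26 for Cd79b (0.983 and 0.975), Adgre1 and Slc7a2 for Ms4a1 (0.970 and 0.969), and Rubcn and Pnpla7 for Cd22 (0.972 and 0.971). They were Arc and Reps1 for Blk (0.962 and 0.940), H2-M3 and Epc1 for Pax5 (0.963 and 0.953) and Uox and Coch for Fcer2a (0.937 and 0.917).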

How the data were processed

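Per the labels' protocols, RNA of the 12 samples was extracted on RNeasy columns, then amplified (WTA-Ovation FFPE V2) and biotinylated (Encore) for Affymetrix Mouse Gene ST arrays. The deposited values are log2 signals per probe set; the log2 scale was read from their range, and the authors' summarization and normalization are not given in the sources used here. Of 35557 probe sets, 35556 had values, 21789 of them a single gene symbol in the platform's annotation and 1621 several, which were left out. For 999 genes with several probe sets the one of highest mean was used, which gave 19938 genes, with no filter on low values. All 12 arrays entered a single limma 3.58.1 model in R 4.3.3 with a mean for each group (lmFit, eBayes; 6 residual and 7.69 prior df). From it 17 contrasts were taken, with Benjamini-Hochberg adjustment over all genes of a contrast and calls at an adjusted p below 0.05. Errors of differences are standard errors. The procedure was tested on simulated data.

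The 7 genes, the other 16 gene lists and the tests were chosen with earlier results of these data known, and several list genes are also made by macrophages. By rule, up to 4 genes of a list could be named, those of smallest unadjusted p in the exposure average or the interaction. To these came the 10 nearest genes by Pearson r and 2 for each member. From all of these, examples were taken after their values were seen. Outside the rule, also with values seen, are Jchain, Xbp1, Tnfrsf17, Derl3, Ngp, Ltf, Camp, Mmp9, Cd68, Lyz2, Itgam, Msr1 and Trat1. Promoter sequences are from RefSeq (GRCm38.p6) and were looked up by gene symbol. Gene names of probe sets were matched by Entrez identifier. Alternatives were a threshold of 0.10, a minimum log2 difference of 0.3, quantile normalization, a filter that drops the genes of lowest mean signal, eBayes with an intensity trend, weights per array, blocks of animal numbers, averaged probe sets, fits restricted to the arrays compared, and each array omitted in turn.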

Additional observations from a re-analysis of the deposited data

Results flagged for a closer look

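The responses of 3 genes to RBC differed between chow and high-fat macrophages by the test of that difference in limma, which 2.57% of all genes passed in the same direction. Taking the chow response from the high-fat response left 1.03 for Cd79a, 0.90 for Ms4a1 and 0.61 for Cd79b on the log2 scale. For Cd79a the estimates have opposite signs in the 2 diets, -0.64 in chow and 0.38 in high-fat macrophages, of which the first passed the test. For Ms4a1 and Cd79b the chow estimates, -0.91 and -0.68, stand against -0.01 and -0.07. Ms4a1 and Cd79a were already low on the unexposed high-fat arrays, and the part of this in the difference was not tested. Ms4a1 kept this call with each array left out, Cd79a lost it without CNR2, and Cd79b kept it in 4 of 12 omissions.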

How the results depend on the processing

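Over the 7 genes in 8 comparisons, 1105 of the values under an alternative kept their direction and their side of the threshold. Of the others, 43 lost the call, 12 gained it and 28 turned in sign. For counts of members, 165 stayed within 1.5 times and 7 did not. Part of the 1105 could not move. Each member has 1 probe set to average, and the settings of 0.10 and 0.3 reuse the main estimates. Omitting an array outside a comparison also leaves its estimate as it was. These totals are therefore no measure of robustness. With quantile normalization, RBC exposure in high-fat macrophages was 0.0118 for Ms4a1 and 0.0238 for Fcer2a, and the diet effect on Pax5 with RBC was called (adjusted p = 0.0384), as with the filter on low values (0.049) and array weights (0.0474). The higher value of Cd22 with RBC exposure in chow macrophages was called with that filter (0.0426), the trend (0.0401) and array weights (0.0431). The fall of Blk with exposure averaged over the diets was also called with that filter (limma adjusted p = 0.0383). The diet effect on Blk without RBC was lost with the trend and robust eBayes (0.0698), array weights (0.0942) and the compared arrays only (0.163), as was Pax5 with the last (0.0596), and the interaction for Cd79b was lost with array weights (0.0523). That filter gives no value for Ms4a1 and Fcer2a. With single arrays left out, the counts of members called ran from 1 to 3 for exposure averaged over the diets, from 2 to 4 for exposure in chow macrophages, from 1 to 3 for the interaction and from 2 to 4 for macrophage diet with RBC. The number of all genes called, behind the background shares, moved as well: from 120 to 652 (215 with all arrays) for exposure in high-fat and from 956 to 3093 (2539) for exposure in chow macrophages, from 681 to 2812 (1480) for their average, from 558 to 1115 (1131) for the interaction, and for macrophage diet from 1600 to 2746 (2780) without and from 564 to 1199 (967) with RBC. The values that turned in sign ranged, for Fcer2a, from -0.19 to 0.0105 (exposure averaged), -0.38 to 0.0293 (in chow macrophages), -0.18 to 0.16 (in high-fat macrophages), -0.0376 to 0.37 (its interaction), -0.0767 to 0.0797 (RBC diet) and -0.16 to 0.15 (RBC diet by macrophage diet). For RBC diet they ranged from -0.0732 to 0.0233 for Cd22, -0.0303 to 0.0092 for Blk, -0.0745 to 0.0077 for Pax5 and -0.21 to 0.0234 for Ms4a1. Exposure averaged ran from -0.27 to 0.0112 for Cd79a, and exposure in high-fat macrophages from -0.13 to 0.10 for Ms4a1 and -0.0664 to 0.11 for Pax5. The cause was not tested. With the animal number as a replicate block over all groups, 5 members were called for macrophage diet without RBC in place of 6 (Blk, adjusted p = 0.0522), and no other member's call changed under either block. Between groups, the residuals of same-numbered arrays correlated from -0.226 to 0.344, over 0.1 for 2 of 15 pairs of groups. These were HHF with HNR (0.344) and CC with CNR (0.138). Such correlations cannot show whether animals were shared, which is not clear from the labels. Signal over background is unknown, so how far the low signals of Ms4a1, Fcer2a and, on high-fat arrays, Cd79a lie above it cannot be given.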

Other observations

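Relatives of the B cell marker genes were also read. Ms4a1 belongs to a family of membrane proteins, several of which macrophages make, and of 15 other measured Ms4a genes 6 were lower in high-fat macrophages without RBC and 0 were higher. Ms4a6b was at -3.77 ± 0.19 (limma adjusted p = 8.37e-09) and Ms4a4a at -3.32 ± 0.19 (adjusted p = 4.14e-08), both larger in size than the -1.35 of Ms4a1. In chow macrophages RBC exposure lowered 3 of the 15 and raised 0, against 4.51% and 8.22% of all genes. Among the 3 was Ms4a4c at -1.25 ± 0.15 (adjusted p = 8.24e-05). In high-fat macrophages exposure raised 1 of the 15, Ms4a6b, by 1.33 ± 0.16 (adjusted p = 0.000584), against 0.878% of all genes.

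Among 7 other Siglecs, the sialic acid receptors to which Cd22 belongs, 2 were higher and 2 lower in high-fat macrophages without RBC. Cd33 was higher by 1.11 ± 0.12 (adjusted p = 1.32e-05) and Siglecf by 0.85 ± 0.12 (adjusted p = 0.000142), while Siglece was at -2.53 ± 0.13 (adjusted p = 8.38e-09) and Siglec1, a receptor of macrophages, at -1.44 ± 0.09 (adjusted p = 1.23e-07). Of 4 measured Src-family kinases besides Blk, Src (-1.04 ± 0.12, adjusted p = 3.73e-05) and Fgr (-0.98 ± 0.16, adjusted p = 0.000709) were lower, and Fyn and Yes1 were at 0.15 ± 0.13 and 0.02 ± 0.13. Of 4 genes tied to the control of CD23, 2 were lower in the same comparison. Il4ra, a chain of the receptor for IL-4, which induces CD23 on B cells, was lower by -1.22 ± 0.09 (adjusted p = 5.79e-07), and Notch2 by -0.72 ± 0.11 (adjusted p = 0.000405), beside a Fcer2a that did not pass.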
